A study of Mus musculus with 16 samples.

Results

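The resting state of RAW264.7 cells was read from the 4 arrays labelled as vehicle-treated, D0_rep1 to D0_rep4, of 16 arrays in the series. RAW264.7 is a macrophage-like mouse cell line that was established from a tumour induced by Abelson murine leukaemia virus, so all samples came from 1 immortal line and not from tissue macrophages. The DMSO group received the solvent for 120 min and neither LPS nor cordycepin. The 3 other groups of 4 arrays were LPS+DMSO (LPS at 1 µg/ml for the last 60 min of the same 120 min in DMSO), cordycepin (20 µM for 120 min, no LPS) and LPS+cordycepin (cordycepin 60 min before the same LPS). All groups had been grown in 10% serum and then kept in 0.5% serum for 24 h, so the resting state described here is that of cells in low serum and DMSO, with no untreated group in 10% serum beside it.

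Macrophages engulf particles and dead cells, digest them in lysosomes, sense microbial products such as LPS through Toll-like receptors, and answer with secreted cytokines and chemokines. Receptors that signal through the adaptors Fcer1g and Tyrobp, the growth factor receptor Csf1r and the transcription factor PU.1 (gene Spi1) are textbook features of the lineage. Many cytokine genes are known as inducible: they are transcribed weakly or not at all until a stimulus arrives.

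The arrays carry 60-base probes, and 22338 genes with a RefSeq symbol had at least 1 probe. A level is the log2 of a probe's processed signal after each array was scaled to a common 75th percentile, and a gene is given by its brightest probe. A difference of 1 in the level of a gene between arrays is a 2-fold difference in signal. The level also depends on how well a probe hybridises, so the order of genes below is an order of probe signal and not of mRNA amount. The size of that effect was visible in transcripts with several probes: among 2341 transcripts with every probe well above background on all 4 arrays, the brightest and the dimmest probe of the same transcript differed by a median of 1.76, with 10% of transcripts over 4.67. A gene was called detected on an array when the scanner software marked a probe of it as well above background, and no order is given among genes that were not. In bulk RNA, fewer cells that express a gene and less of its RNA per cell cannot be told apart.

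At rest, 10930 of the 22338 named genes (48.9%) were detected on all 4 DMSO arrays, 2636 on 1 to 3 arrays and 8772 (39.3%) on none. The detected genes spanned levels from 5.72 to 18.78 with a median of 10.88, and their median SD over the 4 arrays was 0.199. Protein-coding genes were detected on all 4 arrays in 51.9% of cases and long non-coding RNAs in 16.9%. The number of genes detected per array was 11264, 11352, 13026 and 12944 for replicates 1 to 4. Replicates 1 and 2 were hybridised on 1 slide and replicates 3 and 4 on another, and of the 1118 genes detected on exactly 2 arrays, 1079 were those of the second slide. The lowest level that was well above background was 6.10 and 5.20 on the first slide but 4.501 and 4.48 on the second. A gene between these levels could therefore be seen on the second slide alone, and statements on weak genes below rest on all 4 arrays.

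D0_rep2 stood apart from the other arrays. Over the 10930 detected genes its levels correlated with the other arrays at Pearson's r of 0.978 to 0.980, against 0.991 to 0.995 among replicates 1, 3 and 4 (a correlation across genes, which are not independent replicates). A level over 1 from the nearest of the other 3 arrays was found for 247 genes on replicate 2, for 28 on replicate 1, for Fosl1 alone on replicate 3 and for F11r and Xntrpc on replicate 4 (genes named after their values were seen). The genes of replicate 2 are described after the classes.

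Most genes listed as markers of macrophage identity were detected at rest. The gene lists were chosen with earlier results of these data known, so their counts are a description. Of the 36 identity genes, 30 (83.3%, against 48.9% of all named genes) were detected on all 4 DMSO arrays, 6 on 1 to 3 arrays and none on 0. Their median signal percentile among all named genes was 83.1 (SD over arrays 0.441), where the median of all genes is the 50th by construction.

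The highest identity signals came from Fcer1g, the common gamma chain through which Fc receptors signal, with levels of 17.51, 17.54, 17.25 and 17.49 on replicates 1 to 4. Lgals3, which encodes the carbohydrate-binding galectin 3 (Mac-2), read 17.37, 17.66, 17.32 and 17.34. Tyrobp (DAP12), the adaptor of Trem2, read 16.50, 16.47, 16.35 and 16.66. The SDs over the 4 arrays were small for these genes, from 0.13 to 0.16, although Lgals3 stood apart on replicate 2, its highest array. All 3 genes ranked above the 98th percentile. Trem2, a lipid-sensing receptor of phagocytes, averaged 16.30 ± 0.09 (SD, n = 4), and the lysosomal glycoprotein Cd68 averaged 16.45 ± 0.28. Csf1r, the receptor on which macrophage survival depends, read 17.03, 16.09, 16.98 and 16.83, so replicate 2 was the lowest of the 4. A second probe of Csf1r read 13.04 on average, which shows how far a level depends on the probe chosen.

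The LPS co-receptor Cd14 averaged 15.34 ± 0.22, the actin regulator Coro1a 15.07 ± 0.50 (14.33 on replicate 2 and at least 15.21 on the others) and the pore-forming protein Mpeg1 15.05 ± 0.14. Lysozyme was measured by a Lyz2 probe at 13.94 ± 0.12 and a Lyz1 probe at 15.27 ± 0.25. These paralogs are nearly identical, and cross-hybridisation between them was not measured. Lower in the same list stood the integrin chain Itgb2 (11.10 ± 0.06), the pan-leukocyte phosphatase Ptprc (11.18 ± 0.48) and the F4/80 antigen Adgre1 (11.83 ± 0.13). The lineage transcription factors were moderate in signal: Cebpb averaged 13.79 ± 0.11, Irf8 12.46 ± 0.19, Spi1 10.76 ± 0.43, Runx1 10.61 ± 0.34 and Cebpa 7.65 ± 0.28, the last with replicate 2 lowest at 7.23.

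The 6 identity genes that were not detected on every array were scavenger and tissue-resident markers and a complement receptor. Cd36, a scavenger receptor for oxidised lipoprotein, read 6.54, 5.98, 6.89 and 6.86 and was detected on 3 arrays. The complement receptor C5ar1 was also detected on 3 arrays, at 6.62, 5.39, 6.51 and 6.04 over the 4. Mertk, a receptor for dying cells, read 5.87, 4.80, 7.10 and 7.54 and was detected on 2 arrays. The mannose receptor Mrc1 and the scavenger receptor Marco were each detected on 2 arrays, and the haemoglobin scavenger receptor Cd163 on 1. The chemokine receptor Ccr2 was detected on all 4 arrays but at a mean of 6.53, near the lowest signal that the arrays could separate from background. The Itgam probe, at 12.48 ± 0.30, holds a CA repeat shared with the probes of 118 other genes, and another Itgam probe read 8.29.

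**Figure D1:**
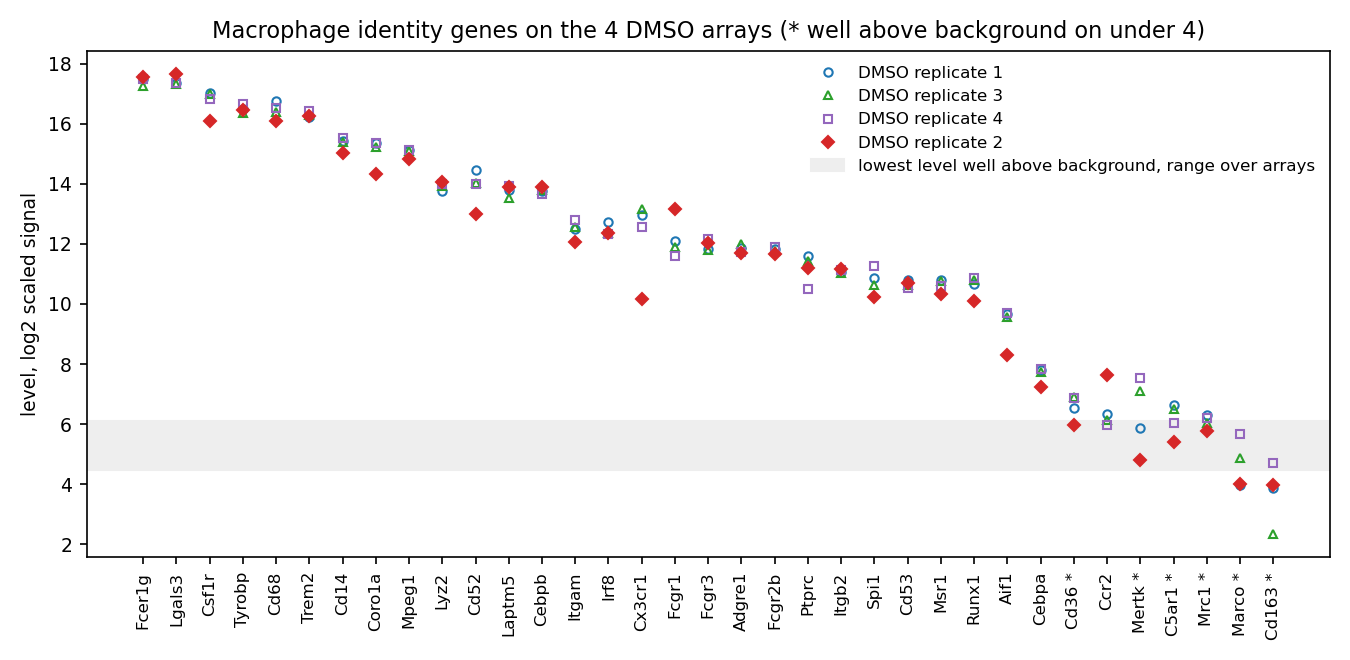
Level (log2 scaled signal) of 35 of the 36 macrophage identity genes on each of the 4 DMSO arrays, ordered by their mean. Filled diamonds are replicate 2, open symbols the other arrays, and the grey band spans the lowest level well above background over the 4 arrays (4.48 to 6.10). Among other genes, replicate 2 was the lowest array for Csf1r, Coro1a, Cd52, Cx3cr1, Aif1, Cd68 and Runx1 and the highest for Fcgr1, Ccr2 and Lgals3.

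Transcripts of the LPS sensing machinery were measured without any LPS. Of 18 listed genes, 15 were detected on all 4 arrays, at a median percentile of 70.9. The LPS receptor Tlr4 read 11.22, 11.13, 11.28 and 11.05, and its partner MD-2 (Ly96) 11.09, 11.40, 11.17 and 11.42. The 4 arrays differed by 0.23 and 0.33 at most for this receptor pair. The adaptor Myd88 averaged 12.43 ± 0.16, the lipopeptide receptor Tlr2 13.01 ± 0.32 and the endosomal receptors Tlr7 and Tlr9 11.87 ± 0.13 and 10.23 ± 0.19. The receptor of double-stranded RNA, Tlr3, was detected on 1 array, as was the serum protein Lbp, which hands LPS to CD14, and the adaptor Ticam2 was detected on 3 arrays. A second Tlr4 probe read 3.06, in the range of undetected genes.

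Markers of other cell types were mostly silent. Over 13 lists with 113 genes, 13 were detected on all 4 arrays (11.5%), 18 on 1 to 3 and 82 on none, at a median percentile of 26.3 (SD over arrays 1.85). No member of the B cell, mast cell, fibroblast, epithelium, hepatocyte or muscle lists was detected on all 4 arrays. All 8 hepatocyte genes, albumin (Alb) among them, were detected on 0 arrays.

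T cell genes were the exception. Cd28, a co-stimulatory receptor, read 14.002, 13.67, 14.07 and 13.86, and 26 of the 36 identity genes had a lower signal. Lck, the kinase that starts T cell receptor signalling, read 11.47, 12.47, 11.29 and 11.24, and the scavenger-like receptor Cd5 10.47, 8.63, 9.85 and 9.69. Replicate 2 was the highest array for Lck and the lowest for Cd5. Cd3e averaged 8.63 ± 0.24 and Cd4 10.05 ± 0.18, while Cd3d, Cd3g, Cd8a, Cd8b1 and Zap70 were detected on no array. The T cell receptor complex needs Cd3d and Cd3g beside Cd3e, so its defining chains were only in part detected. A second Cd4 probe read 3.74.

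Of the remaining 8 genes detected on all 4 arrays, the highest were Vwf (13.19 ± 0.71), Snap25 (11.87 ± 0.33) and Kdr (11.62 ± 0.20), markers of endothelium and neurons. A second probe read 7.88 for Vwf and 3.25 for Kdr, and the Snap25 probe carries the same CA repeat as that of Itgam. Elane, the neutrophil elastase gene of granulocyte precursors, averaged 9.30 ± 0.23. The others were Nanog (8.17), the perforin gene Prf1 (7.98), S100a8 (7.61) and the erythropoietin receptor Epor (7.19). The Nanog probe shares sequence with the probes of 12 other genes, and other Nanog probes read at most 3.76.

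**Figure D2:**
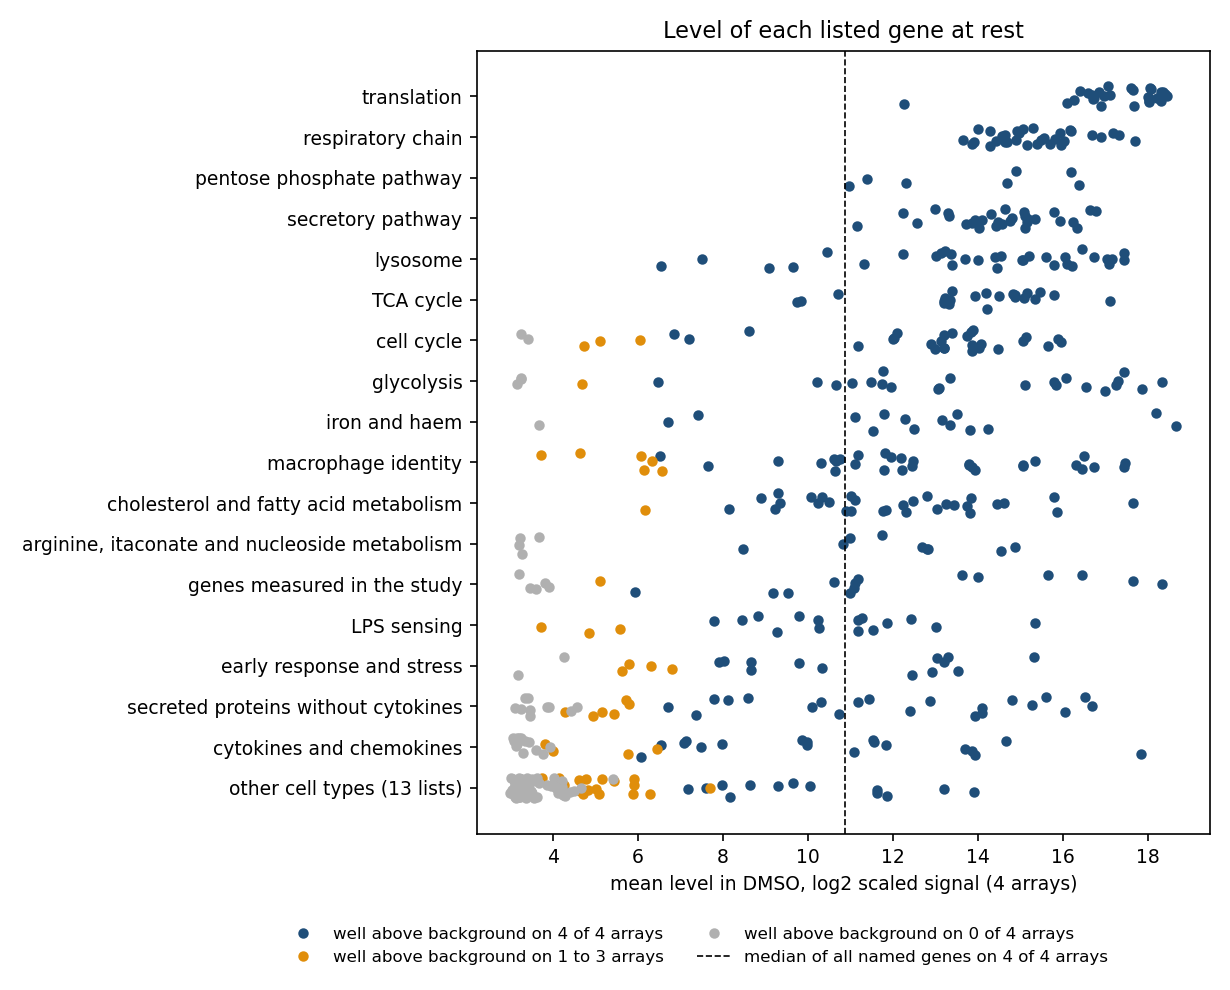
Mean level in DMSO (log2 scaled signal, n = 4 arrays) of every gene in the 17 class lists, ordered by median percentile, and of the 113 markers of other cell types together. Blue points were detected on all 4 arrays, orange on 1 to 3 and grey on none, and the dashed line marks 10.88, the median of all detected genes. Translation and respiratory chain genes all lay above that line, cytokines reached from 17.82 down to the undetected range, and 82 of the 113 other markers were undetected.

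The lysosome was among the strongest classes. All 32 listed genes were detected on all 4 arrays, at a median percentile of 96.0. The membrane glycoprotein Lamp1 averaged 17.43 ± 0.17, and the proteases followed with cathepsin A (Ctsa) at 17.43 ± 0.11, cathepsin D (Ctsd) at 17.16 ± 0.48, cathepsin B (Ctsb) at 17.04 ± 0.13 and cathepsin S (Ctss) at 16.72 ± 0.09. The proton pump subunit Atp6v0c averaged 16.21 ± 0.26, and the precursors progranulin (Grn) and prosaposin (Psap) 16.05 ± 0.50 and 15.59 ± 0.42, with replicate 2 the highest array for both (16.78 for Grn and 16.22 for Psap). The low end held Acp5, the tartrate-resistant acid phosphatase of osteoclasts, at 6.54 ± 0.34 and the osteoclast proton pump subunit Atp6v0d2 at 7.51 ± 0.68. Cathepsin K (Ctsk), the bone-degrading protease of osteoclasts, averaged 14.01 ± 0.15.

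The secretory pathway was equally complete, with all 30 genes detected on all 4 arrays at a median percentile of 96.3. The endoplasmic reticulum chaperone Hspa5 (BiP) averaged 16.63 ± 0.20 and the disulfide isomerase Pdia6 16.78 ± 0.30. The translocon subunits Sec61b, Sec61g and Sec61a1 averaged 16.33, 15.94 and 15.08, although the Sec61b probe shares sequence with the probes of 50 other genes and another Sec61b probe read 11.88. The coat subunits Sec31a, Sec13 and Copb1 stood lower, at 12.99, 12.57 and 12.23.

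What the pathway would carry was more uneven. Among 37 secreted proteins other than cytokines, 21 (56.8%) were detected on all 4 arrays, 6 on 1 to 3 and 10 on none. The share of all named genes detected on all 4 arrays was 48.9%. The median percentile of the secreted proteins was 56.5. The protease inhibitor cystatin C (Cst3) averaged 16.67 ± 0.22, the class I light chain B2m 16.52 ± 0.33, lipoprotein lipase (Lpl) 14.79 ± 0.47, osteopontin (Spp1) 14.10 ± 0.66 and properdin (Cfp), a stabiliser of the complement convertase, 14.10 ± 0.31. Igf1 averaged 12.41 ± 0.61. Complement C3 averaged 10.096 ± 0.40, but the C1q chains that tissue macrophages make were weak: C1qc averaged 7.36 (6.49 on replicate 2, the lowest array), C1qb 6.71, and C1qa was detected on 2 arrays. Apoe averaged 10.31 ± 0.27. The 10 silent genes were the matrix metalloproteinases Mmp8, Mmp9, Mmp12, Mmp13 and Mmp14, the matrix proteins Fn1, Sparc and Thbs1, the protease inhibitor Serpinb2 and Retnla, a marker of IL-4-activated macrophages.

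Cytokine genes were detected at about the share of all named genes. Of 36, 18 (50%) were detected on all 4 arrays, 4 on 1 to 3 and 14 on none. Over all named genes 48.9% were detected on all 4 arrays and 39.3% on none. The median percentile of the cytokine genes was 49.97, next to that of all genes. Mif, a cytokine stored in many cells, averaged 17.82 ± 0.10. The chemokines Ccl3 and Ccl4 (MIP-1 alpha and beta) read 14.95, 15.02, 14.46 and 14.20 and 14.18, 14.06, 13.72 and 13.49. Both were higher on replicates 1 and 2 than on 3 and 4, without overlap between the slides. Ccl9 averaged 13.93 ± 0.77, Pf4 13.69 ± 0.51, Tgfb1 11.55 ± 0.35 and Ccl2 11.54 ± 0.44. Tnf, the central early cytokine of the LPS response, was already detected at rest, at 11.29, 11.20, 10.83 and 10.98, and Il18 averaged 9.99 ± 0.12.

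The 14 silent cytokine genes were Il1a, Il1b, Il10, Il12a, Il12b, Il23a, Csf2, Csf3, Cxcl1, Cxcl3, Cxcl9, Ccl17, Ccl22 and Lif. Il6 and the interferon gene Ifnb1 were detected on replicate 2 alone, at 6.59 and 6.40, and were not detected on the other 3 arrays. Cxcl2, a neutrophil chemokine, was detected on replicates 1 and 2 (6.71 and 7.81) and not on 3 and 4.

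Energy metabolism was strongly represented. Of 26 glycolysis genes, 22 were detected on all 4 arrays, at a median percentile of 90.5. Several steps have more than 1 isoform, and their probe signals are given without an order. Hk1 averaged 16.98 ± 0.14, Hk3 13.33 and Hk2 11.77 (11.44 on replicate 2, the lowest array), and the Hk1 probe shares sequence with the probes of 6 other genes and another Hk1 probe read 13.89. Aldoa averaged 17.84 ± 0.13 and Aldoc 15.11 ± 0.05. Ldha averaged 17.43 ± 0.20 and Ldhb was silent. Pkm averaged 17.28 ± 0.22 and the liver and red cell form Pklr was silent, and the muscle mutase Pgam2 was detected on 2 arrays against 16.06 ± 0.11 for Pgam1. The glucose carriers Slc2a1 and Slc2a3 averaged 13.06 ± 0.21 and 10.22 ± 0.14. The lactate exporter Slc16a3 (MCT4) read 13.81, 12.001, 13.20 and 13.37, and the isoform Slc16a1 (MCT1) averaged 6.49 ± 0.15.

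The pentose phosphate pathway, which supplies NADPH, was detected in full (7 of 7 genes, median percentile 96.5), led by Taldo1 (16.37 ± 0.32) and Tkt (16.18 ± 0.04). All 22 genes of the TCA cycle were detected (median percentile 95.2), from Mdh2 at 17.10 ± 0.10 down to the pyruvate dehydrogenase subunits Pdha1 and Dlat at 9.85 ± 0.21 and 9.76 ± 0.24. All 32 respiratory chain genes were detected, in a narrow range from 13.65 to 17.69, at a median percentile of 97.5 and with a median SD over arrays of 0.127, against 0.199 for all detected genes. Cox6a1 averaged 17.69 ± 0.09 and the ATP synthase subunit Atp5b 17.31 ± 0.11. The mitochondrially encoded COX1 was the eighth brightest named gene, at 18.48 ± 0.06.

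Lipid handling covered uptake, synthesis and export. Of 31 genes, 30 were detected on all 4 arrays, at a median percentile of 82.8, and the exception was the nuclear receptor Pparg, detected on 2 arrays at levels of 6.22, 6.15, 6.15 and 6.17. The fatty acid carrier Fabp5 averaged 17.64 ± 0.06, the desaturase Scd2 15.87 ± 0.42 and farnesyl diphosphate synthase (Fdps) 15.79 ± 0.28. The cholesterol exporter Abcg1 read 14.15, 12.69, 14.25 and 13.88, and Abca1 10.23, 7.03, 9.93 and 10.00. Replicate 2 was the lowest array for both exporters.

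Iron storage was close to the top of the array. Ferritin heavy chain (Fth1) read 18.67, 18.80, 18.58 and 18.61 and was the third brightest named gene, and the light chain Ftl1 averaged 18.18 ± 0.19. The phagosomal metal transporter Slc11a1 (NRAMP1) averaged 14.24 ± 0.48, the haem oxygenase Hmox1 13.51 ± 0.77 (14.55 on replicate 2, the highest array) and the iron exporter Slc40a1 (ferroportin) 11.79 ± 0.53. Of 15 genes, 14 were detected on all 4 arrays, and Hamp, the hormone that degrades ferroportin, was silent.

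In arginine metabolism the importer and ornithine decarboxylase gave the strongest signals. The cationic amino acid carrier Slc7a1 averaged 14.86 ± 0.18 and Odc1, which starts polyamine synthesis, 14.54 ± 0.24. The arginases Arg1 and Arg2 and the second carrier Slc7a2 were silent. The inducible nitric oxide synthase Nos2 was detected at 8.49, 9.26, 8.15 and 8.04, highest on replicate 2. Acod1, which makes itaconate from a TCA cycle intermediate, was detected at rest at 10.82 ± 0.47. The enzymes that act on adenosine, Ada and Adk, averaged 12.81 ± 0.28 and 12.68 ± 0.25, and Nt5e, which makes adenosine outside the cell, was silent.

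The cells carried high cell cycle signal after 24 h in 0.5% serum. Of 32 genes, 27 were detected on all 4 arrays at a median percentile of 91.1. The polymerase clamp Pcna averaged 15.65 ± 0.20, the helicase subunit Mcm6 15.88 ± 0.28, Mki67 14.47 ± 0.54 and Cdk4 15.95 ± 0.20. The inhibitors Cdkn1a and Cdkn1b averaged 12.03 ± 0.31 and 11.18 ± 0.56. Cdkn2a, the gene of the tumour suppressors p16 and p19Arf, was silent, as was Ccne2. Myc was detected on 2 arrays, at levels of 4.68, 6.69, 4.95 and 4.13. Both Cdkn2a probes gave means in the undetected range, 3.41 and 3.21.

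Early response and stress genes were mixed. Of 19 genes with a probe, 13 were detected on all 4 arrays, 4 on 1 to 3 and 2 on none, at a median percentile of 60.95 (34.0 in the deposited value table, which holds fewer genes). Trib3 and Chac1, targets of the integrated stress response, averaged 15.32 ± 0.91 and 13.53 ± 0.21, Jun 13.20 ± 0.28 and Atf3 13.04 ± 0.38. Fos, Junb, Fosb and the mRNA decay factor Zfp36 were detected on 2 or 3 arrays, with means from 5.63 to 6.81. Egr1 and the heat shock gene Hspa1a were silent. A further list held genes assayed outside the arrays. Of these 20, 14 were detected on all 4 arrays, with the polyadenylation factors Cpsf4 and Wdr33 at 11.12 ± 0.31 and 10.99 ± 0.09, Nestin (Nes) at 5.94 ± 0.53, and the osteoblast factors Runx2 and Sp7 and the aggrecanase Adamts5 silent.

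Translation formed the top of the array. All 28 listed genes were detected, at a median percentile of 99.6, from Fau at 18.45 ± 0.08 and Rplp0 at 18.39 ± 0.20 down to the initiation factor Eif3a at 12.26 ± 0.18. Of 100 genes with a symbol that starts with Rpl or Rps, 94 were detected and 45 were among the 100 brightest genes. The 3 detected on no array, named for that reason, were the tissue-restricted copies Rpl39l and Rpl3l and the kinase Rps6ka6, which shares only the letters.

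The 20 brightest named genes held 7 ribosomal proteins and Fau, the carrier of Rps30, but also genes with no such role, and several of the latter had probe sequence in common. The brightest were Glrx2 (18.78), Kctd14 (18.68), Fth1 (18.67), Rpl37a (18.60) and the hepatic bile acid carrier Slc10a1 (18.58). Other probes of the same genes read 12.47 for Glrx2, 3.73 for Kctd14 and 3.103 for Slc10a1. Pirb (18.41) and the transcription factor Elk1 (18.39) were in the top 20 as well, with other probes at 9.26 and 5.21. The probe windows below are 30 bases of each 60-base probe, in the deposited orientation, and the capitals mark the 15 bases that are also found in probes of the largest number of other genes.
Glrx2: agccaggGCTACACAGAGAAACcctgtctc
Elk1: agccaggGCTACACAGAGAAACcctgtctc
Kctd14: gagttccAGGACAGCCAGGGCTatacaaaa
Slc10a1: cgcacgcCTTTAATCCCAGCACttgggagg
Pirb: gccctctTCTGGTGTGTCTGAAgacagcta
Nanog: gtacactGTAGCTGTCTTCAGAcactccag
Snap25: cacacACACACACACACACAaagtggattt
Itgam: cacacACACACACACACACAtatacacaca
Fth1: ggctgccTTCATCTTTTCTATAagttgcac

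The probes of Glrx2 on chr1:145596708-145596767 and of Elk1 on chrX:20510521-20510580 (mouse build mm9, as the array's files give them) had the same 30 bases here, and 27 words of 15 bases in common. Their 15 marked bases occurred in the probes of 13 other genes, and the 14 probes that held them had a median level of 13.59, with 12 of 14 detected on all 4 arrays. Sequence of this kind is known from the B1 repeat, a short interspersed element with very many copies in the mouse genome. The 15 marked bases of Pirb were in 13 probes, all 13 detected, at a median of 16.81. The CA repeat of Snap25 and Itgam was in 119 probes, of which 117 were detected at a median level of 13.75. The Fth1 probe, given for contrast, shared its bases with probes of 1 other gene.

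The same held across the array. Probes that shared no 15 bases with another gene had a median level of 4.32 and were detected on all 4 arrays in 35.0% of cases, whereas probes that shared them with 50 or more genes had a median of 13.7 and were detected in 97.1%. In all, 1358 probes shared 15 bases with at least 5 other genes. Of the 20 brightest genes, 8 were read by such a probe. Gapdh was among them, sharing 13 words of 15 bases with the Gm5523 probe, and other Gapdh probes read up to 17.99. Without these probes the brightest genes included Fth1, Rpl37a, Rpl35 and COX1, and 10646 named genes were detected on all 4 arrays. Exosc2 (18.43) and Milr1 (18.24, named after its values were seen) also stayed among the brightest. Their probes have 15 bases in common, and other Milr1 probes read 17.05 and 12.98. The cut at 5 genes thus did not remove all probes with shared sequence.

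Promoter sequence went with detection. Promoters of 300 bases (250 before and 50 after a start site, from RefSeq, build GRCm38.p6) were matched by symbol to 17495 of the named genes. Promoters rich in the dinucleotide CG, called CpG islands, are known to accompany widely expressed genes. The median number of CG per 300 bases was 21 for genes detected on all 4 arrays and 5 for genes detected on none. Of genes with fewer than 5 CG, 13.4% were detected on all 4 arrays, and the share was 32.7% with 5 to under 10, 63.5% with 10 to under 20 and 74.2% with 20 or more.

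**Figure D3:**
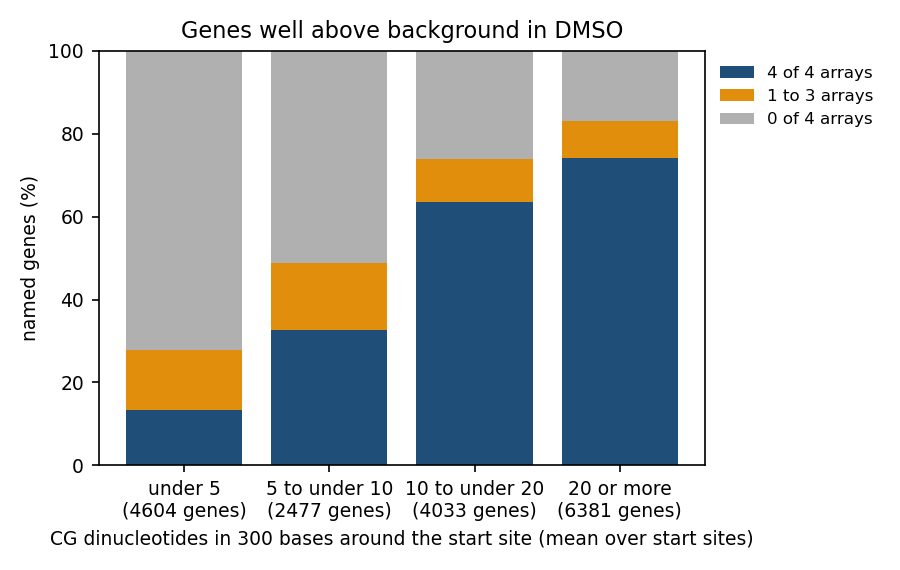
Share of named genes (%, stacked from 0 to 100) detected on all 4, on 1 to 3 and on 0 DMSO arrays, by the number of CG dinucleotides in the 300 bases around the start site, with the number of genes under each bar. The share detected on all 4 arrays was 13.4% in the first bar and 74.2% in the last.

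The classes differed in the same measure. The median number of CG per promoter was 25 for translation and for cell cycle genes, 24 for the secretory pathway and 23 for the respiratory chain. It was 4 for macrophage identity genes and 4 for cytokines, close to 4.5 for markers of other cell types, although the identity genes were detected and the other markers were mostly not. The 100 bases before the start site show this for the translation genes Rplp0 and Fau, the cell cycle gene Pcna and 3 identity genes, with CG in capitals.
Rplp0: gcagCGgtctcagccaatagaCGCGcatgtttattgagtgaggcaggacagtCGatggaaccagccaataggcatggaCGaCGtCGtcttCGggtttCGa
Fau: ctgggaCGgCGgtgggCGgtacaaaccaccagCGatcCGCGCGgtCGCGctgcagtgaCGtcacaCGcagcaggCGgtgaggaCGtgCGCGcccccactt
Pcna: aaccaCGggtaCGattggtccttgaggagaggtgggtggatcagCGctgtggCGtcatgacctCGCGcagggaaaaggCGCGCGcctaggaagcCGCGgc
Fcer1g: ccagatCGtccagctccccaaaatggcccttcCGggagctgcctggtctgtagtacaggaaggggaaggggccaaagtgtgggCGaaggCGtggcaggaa
Cd68: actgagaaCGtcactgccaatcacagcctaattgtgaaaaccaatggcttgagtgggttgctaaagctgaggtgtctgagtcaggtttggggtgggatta
Lyz2: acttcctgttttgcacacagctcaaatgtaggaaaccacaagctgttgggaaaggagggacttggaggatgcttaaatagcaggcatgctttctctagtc

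These windows lie at chr5:115559367-115559466 (Rplp0), chr19:6057847-6057946 (Fau), chr2:132253181-132253280 (Pcna), chr1:171234350-171234449 (Fcer1g), chr11:69666171-69666270 (Cd68) and chr10:117282273-117282372 (Lyz2) of GRCm38.p6, the first 2 on the plus strand and the others on the minus strand. They held 9, 15 and 11 CG for Rplp0, Fau and Pcna against 4, 1 and 0 for the identity genes. The mean levels of the 6 genes, each read by a different probe, ran from 13.94 for Lyz2 to 18.45 for Fau.

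The letters TCACGTGA, the palindromic core of the CLEAR element bound by the lysosome regulators TFEB and TFE3, were searched on both strands. They stood in a promoter of 5 of 26 lysosome genes with a RefSeq promoter (19.2%). The share was 1.43% of all genes with a promoter, 2.34% of those detected on all 4 arrays and 0.55% of those detected on none. The capitals mark them in the middle of 100 bases from the 4 genes of highest signal, and a second copy in Ctsa is left in lower case.
Ctsa: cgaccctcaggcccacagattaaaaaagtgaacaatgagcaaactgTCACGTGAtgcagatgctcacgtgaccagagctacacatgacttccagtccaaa
Ctsd: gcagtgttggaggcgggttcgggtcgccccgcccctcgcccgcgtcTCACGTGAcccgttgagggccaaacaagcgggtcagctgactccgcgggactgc
Atp6v1a: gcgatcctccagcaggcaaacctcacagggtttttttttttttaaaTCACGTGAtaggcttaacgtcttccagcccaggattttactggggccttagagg
Mcoln1: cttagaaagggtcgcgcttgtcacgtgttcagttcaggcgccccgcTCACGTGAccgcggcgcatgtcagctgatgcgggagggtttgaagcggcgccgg

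The windows lie at chr2:164833714-164833813, chr7:142387873-142387972, chr16:44139338-44139437 and chr8:3500427-3500526 of GRCm38.p6, with Ctsa and Mcoln1 on the plus strand and Ctsd and Atp6v1a on the minus strand. The fifth gene was the proton pump subunit Atp6v0d1, and the 5 genes averaged from 13.36 to 17.43. A match of letters is a description and not a binding site. The letters TATAAA, the core of the TATA box, were searched in the 50 bases before the start on the given strand. They stood in a promoter of 3.60% of all genes with a promoter and of 5 of 26 cytokine genes. Genes with them were detected on all 4 arrays in 25.2% of cases, against 50.8% without them. The pair shown, with TATAAA in capitals, includes a cytokine that was on at rest and another that was off.
Tnf: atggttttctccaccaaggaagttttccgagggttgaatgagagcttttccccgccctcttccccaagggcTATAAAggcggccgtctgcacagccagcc
Il1b: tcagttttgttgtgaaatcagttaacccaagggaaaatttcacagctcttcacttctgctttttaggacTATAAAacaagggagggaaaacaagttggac

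The Tnf window lies at chr17:35202008-35202107 and the Il1b window at chr2:129371140-129371239 of the same build, both on the minus strand. The letters GAGGAAGT, the PU.1 core, stood in a promoter of 1 of 27 identity genes (Cd53) against 3.49% of all genes with a promoter. TCACCCCAC, the sterol response core, stood in a promoter of 1 of 20 lipid genes (Hmgcs1) against 0.629%.

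Large families with restricted roles were mostly silent. Of 1094 olfactory receptor genes, 10 were detected on all 4 arrays, and of 262 vomeronasal receptor genes 4. The beta-defensin family had 1 detected gene of 43, Defb25. Defb25, outside the lists, is named after its values were seen. Of 41 Hox genes, 9 were detected.

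DMSO replicate 2 departed from the other arrays in single genes and in the medians of classes. The 10 genes of largest SD over the 4 arrays included 5 that were high on replicate 2 alone. Lcn2, the siderophore-binding lipocalin 2, read 6.90, 11.33, 6.33 and 6.63, 4.70 above the mean of the other 3. The aldo-keto reductase Akr1b7 read 8.61, 12.83, 8.22 and 8.37, and the osteocalcin gene Bglap2 6.39, 10.51, 6.68 and 6.67. The chemokine Ccl5 read 11.26, 13.95, 11.04 and 11.13, and the stress genes Ddit3 and Trib3 read 12.21, 14.31, 11.50 and 11.76 and 15.20, 16.64, 14.80 and 14.64. On each of these 6 genes replicate 2 was the highest array, above all of the other 3.

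Below the other arrays on replicate 2 stood Abca1, at -3.02 from that mean, and the fractalkine receptor Cx3cr1, which read 12.96, 10.15, 13.15 and 12.56. The noncoding Mirg, the centromere chaperone Hjurp and the oxysterol receptor Gpr183 were the next, at -2.28, -2.19 and -2.18 from the mean of the other 3. Metallothionein Mt2 had a different pattern: 11.06, 15.22, 13.80 and 13.71, with replicate 1 far below the rest and replicate 2 above it.

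By class, cell cycle genes were lower on replicate 2, with a median difference of -0.631, 25 of 27 genes being lower than the mean of the other 3. Lipid genes had a median difference of -0.491 (25 of 30 lower), with Srebf1 at 8.66, 7.25, 8.39 and 8.29 and Scd1 at 10.37, 8.31, 9.54 and 9.21. Lysosome genes were higher, with a median difference of 0.314 (23 of 32 higher), led by Grn at 15.86, 16.78, 15.62 and 15.93 and Ctsd at 16.95, 17.85, 16.76 and 17.08. Iron genes (0.237, 13 of 14 higher) and translation genes (0.226, 26 of 28 higher) were also above, and all detected genes together were shifted by -0.01. The directions of the 5 classes held under each of the 4 other ways of scaling or correcting the signals, but the translation difference fell to 0.101 with quantile normalisation and 0.0943 in the deposited value table, and that of all detected genes was 0.116 with normexp correction. On replicate 2 of cordycepin translation genes were also higher, with a median difference of 0.177 (26 of 28 higher), and on replicate 2 of LPS+cordycepin lower, at -0.239 (21 of 28 lower).

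**Figure D4:**
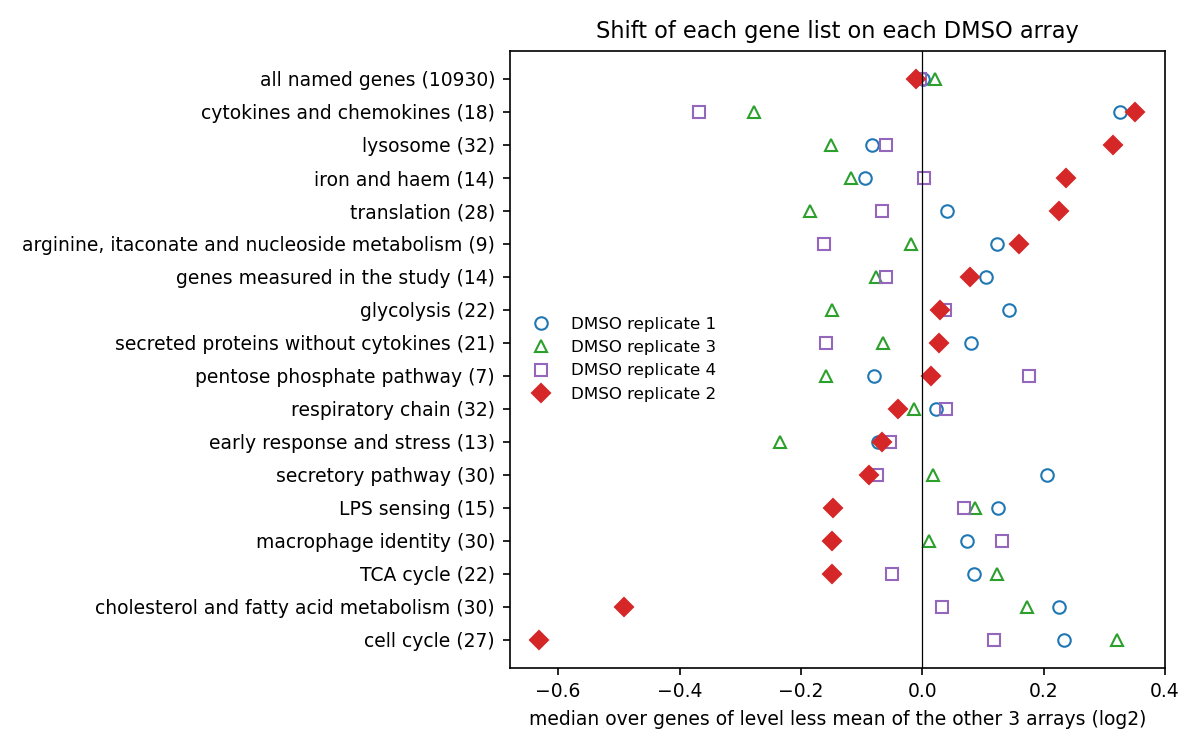
Median over the detected genes of each class (number in brackets) of the level on an array less the mean of the other 3 DMSO arrays (log2). Filled diamonds are replicate 2 and open symbols the other arrays. Replicate 2 lay at -0.631 for cell cycle genes and at -0.491 for lipid genes, and at 0.314 for lysosome genes, while all genes together lay near 0 on each array.

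These single genes were followed on the arrays that carry the same replicate number in the other conditions. By the treatment protocol the 4 conditions were wells of a plate, but whether a replicate number marks 1 plate is not given in the sources used here. The 156 genes that were over 1 above the nearest other DMSO array on replicate 2 lay a median of 1.63 above the mean of the other 3 in DMSO. On replicate 2 of the other groups the same genes lay 0.01 (cordycepin), 0.04 (LPS) and 0.09 (both) above it. The 91 genes below lay at a median of -1.35 in DMSO and at -0.16, 0.00 and -0.18 in those conditions. Against LPS+DMSO, with DMSO replicate 2 left out of the fit, 1.69% of the detected genes were called up and 1.56% down (limma, adjusted p under 0.05, 2-fold or more). Of the 156 genes, 19 were called up and 3 down, and of the 91 genes 2 were called up and 3 down. These sets were chosen with the same 3 DMSO arrays that stayed in the fit, so the counts are a description.

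**Figure D5:**
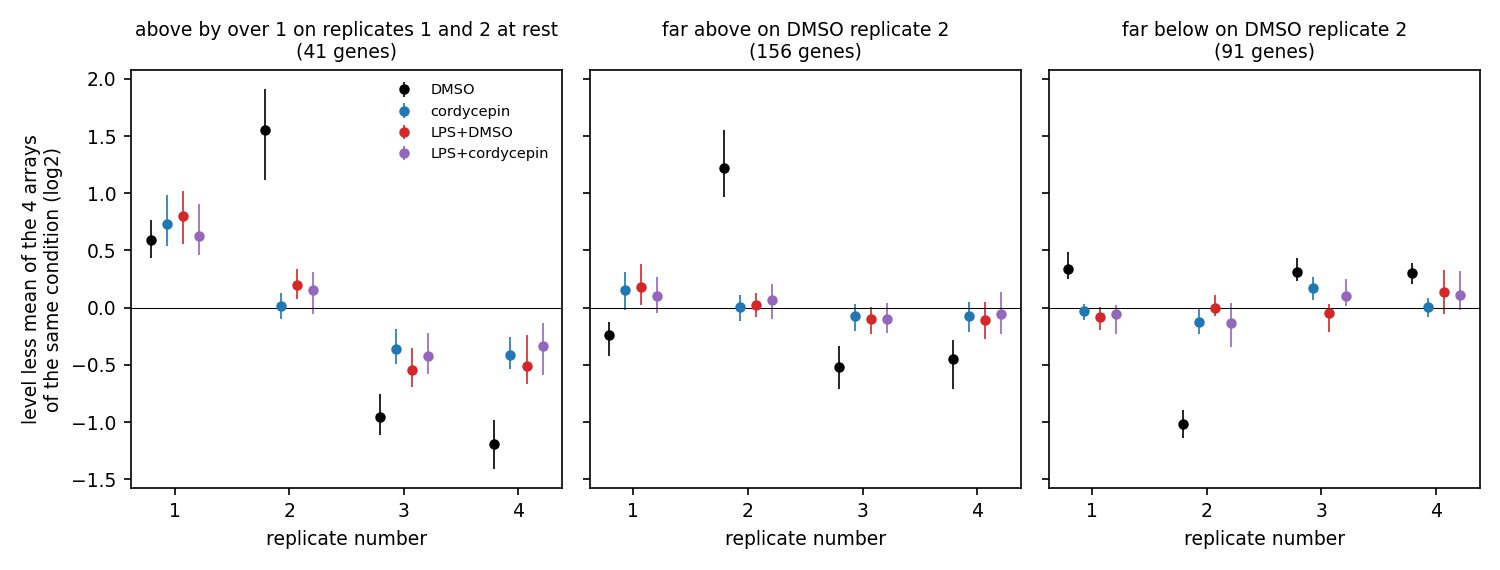
Median level (log2) less the mean of the 4 arrays of the same condition, with the middle 50% of genes as bars, for 3 sets of genes chosen on the DMSO arrays and followed on replicates 1 to 4 of each condition. The sets high or low on DMSO replicate 2 (centre, right) stood apart on that array alone, whereas the 41 genes high on DMSO replicates 1 and 2 (left) were above the mean on replicate 1 and below it on replicates 3 and 4 in every condition.

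A second pattern followed the slides. On 41 genes both DMSO arrays of the first slide lay over 1 above both arrays of the second slide, and on S100a8 alone the reverse held, at 7.10, 6.52, 8.16 and 8.66. The median difference of the 41 genes was 2.13. Those printed here beyond the 10 genes of largest SD and the list members are named after their values were seen. Isg15, a ubiquitin-like modifier, read 12.97, 14.14, 11.01 and 10.90. Irf7, the master regulator of interferon genes, read 9.37, 10.86, 7.14 and 7.34, and the antiviral enzyme Rsad2 (viperin) 10.01, 11.66, 8.02 and 7.82. Apol9b read 9.78, 9.85, 6.21 and 5.95 and Ifi44l 9.36, 9.40, 6.21 and 5.36. Listed genes among the 41 were Saa3 (9.19, 10.54, 7.61 and 7.05), Cxcl10 (10.38, 11.41, 9.07 and 8.598) and Csf1 (10.097, 12.12, 8.95 and 8.80). The groups of 2 arrays did not overlap for any of them, which the rule that chose these genes required.

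In contrast to the genes of replicate 2, these 41 kept the same side in the other conditions: 39 of 41 were higher on the first slide in each, with median differences of 1.02 after LPS, 0.761 after cordycepin and 0.760 after both. Within the first slide, replicate 1 was the higher array in those 3 conditions and replicate 2 in DMSO. Slide and culture cannot be told apart, since each replicate number is on 1 slide.

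Few of the classes that were strong at rest moved within 1 h of LPS. The test was limma with Benjamini-Hochberg adjustment, and a call needed a change of 2-fold or more besides an adjusted p below 0.05. The 15893 entries tested were named genes together with array entries that have no RefSeq symbol. On that rule 332 of these entries rose against DMSO (2.09%) and 396 fell (2.49%). Among the 11613 named genes tested, 245 rose and 191 fell. Of the 371 genes of the class lists that were tested, 46 rose and 1 fell. Cytokines held 16 of these (of 24 tested) and early response genes 14 (of 18 tested). No gene of the lysosome, secretory, glycolysis, pentose phosphate, TCA cycle, respiratory chain, iron or translation lists was called in either direction.

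Among macrophage identity genes Cd14 rose by 1.12 ± 0.11 (SE, limma adjusted p = 4.4e-06) and C5ar1 by 2.66 ± 0.49 (adjusted p = 0.0013). Fcgr1, the high-affinity IgG receptor, was called down, with a change of -1.14 (limma adjusted p = 0.0088). Its DMSO levels were 12.11, 13.18, 11.89 and 11.61, so replicate 2 was the highest, and without that array no class gene was called down. In the LPS sensing list Cd14, Tlr2 (2.43 ± 0.14) and the adaptor Ticam1 (1.49 ± 0.11) rose. Tnf, detected at rest, rose by 6.71 ± 0.12.

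Of the 8772 genes silent at rest, 8 were detected on all 4 arrays after LPS and 6620 on none of the 16 arrays. The listed ones were Il1b, which after LPS stood 77.1-fold above a reference level at rest (mean level 11.34), Egr1, 15.7-fold (9.09), and Csf3, 12.5-fold (8.71). The reference was the lowest level well above background on each DMSO array, or the gene's own level where that was higher. It is not a fixed detection limit, because some probes with a higher level were not marked as well above background. The other 5, named after their values were seen, were Cish, Dusp8, Gm614, Iglon5 and Tmem88. In the opposite direction 5 genes, again named after their values were seen, detected on all 4 DMSO arrays were detected on none after LPS: 2610507I01Rik, 2900024J01Rik, D130051D11Rik, Gm15850 and Ugt1a6a. Of the 10930 genes on at rest, 10502 were detected on all 16 arrays.

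Cordycepin alone, against the same DMSO arrays, was followed by a rise in 713 of the 15893 entries (4.49%) and a fall in 168 (1.06%). Among the 11613 named genes tested, 372 rose and 147 fell. Of the 371 class genes tested, 3 rose and 3 fell. Those that rose were Apoe (1.85), Timp1 (2.17) and Cxcl2 (1.91), and those that fell were Runx1 (-1.14), Chac1 (-2.21) and Adm (-1.06). The calls of Cxcl2 and Adm were lost under several other settings. Both comparisons use the 4 DMSO arrays, so an error in a resting level enters both.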

How the data were processed

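Total RNA of 16 RAW264.7 cultures was hybridised to 1-colour (Cy3) Agilent mouse arrays with 60-base probes, and 4 of these arrays, those of the DMSO group, carry the results. The intensity values were deposited as scanner output, background-subtracted by Agilent Feature Extraction (version 10.10.1.1 per the submitters' processing notes, 10.7.3.1 per the file headers) with probe positions on mouse build mm9. The authors also deposited a table of log2 values that were normalised between arrays by a method not given in the sources used here, whose DMSO columns had medians of 9.44 to 9.46. It holds 12216 of the named genes and served as an alternative.

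Each array's processed signal was scaled to its 75th percentile over the 18064 probes that were well above background on all 16 arrays, and log2 was taken. Control spots were left out, spots of 1 probe were averaged, and 31296 of 55681 probes received a RefSeq symbol. The probe that was brightest on average over all 16 arrays stood for a gene. Changes after LPS or cordycepin were fitted with limma 3.58.1 in R 4.3.3 over all 4 groups, without a block. The fit covered 15893 entries whose probe passed the background flag throughout 1 or more of the groups, 11613 of them named genes. The p-values were adjusted by Benjamini-Hochberg over all entries. On simulated data for 15818 such entries, 200 of them changed, 194 were recovered and 2 others were called. The simulated noise was independent and normal with a fixed SD for each entry, and every planted change was over 2-fold. It held no slide pattern and no outlying array, so these counts do not measure how the fit performs on the real arrays. Tables and figures were made with Python 3.11.15, pandas 2.3.3, numpy 2.4.6 and matplotlib 3.10.9.

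The genes named were the members of the lists, the 20 brightest, the 10 of largest SD and the 10 farthest on replicate 2. The members and lists were chosen with earlier results of these data known. Promoters and symbols came from RefSeq tables. Slides were taken from the file headers. The study calls the samples of a group biological replicates but does not say how their cultures were kept apart. The p-values measure the spread between these samples, part of which may be technical. The number of arrays limits the precision, and no depth applies to hybridisation signals. Alternatives were other scalings, quantile normalisation, normexp correction, the deposited value table, the mean of a gene's probes, no filter on dim probes, replicate and slide blocks, a fit of the compared groups alone and each replicate left out. Leaving out probes that share sequence was added after seeing the data. A few genes are not reported here.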

Additional observations from a re-analysis of the deposited data

Results flagged for a closer look

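For 17 of the 154 genes whose levels are given, 1 DMSO array lay far from the other 3, measured as the gap to the nearest array over the whole range and set against Dixon's limit for 4 values. Chance flags about 1 in 20 groups. Of the 17, 13 lay apart on replicate 2. The 154 include genes named for their large SD or their distance on replicate 2, among them Lcn2, Akr1b7, Bglap2 and Abca1, so the counts cannot be set against that rate.

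Above the other arrays on replicate 2 were Psap (gap 0.965 of the range), Bglap2 (0.931), Ccl5 (0.926), Akr1b7 (0.914), Lcn2 (0.886) and Lgals3 (0.856). Below them were Abca1 (0.907), Ldha (0.890), Mpeg1 (0.875), Coro1a (0.851), Cebpa (0.848), Hk2 (0.839) and C1qc (0.834).

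On the remaining arrays, Ctss lay above the others on replicate 3 (0.979) and Irf8 on replicate 1 (0.914). Mdh2 (0.846) and Slc7a1 (0.844) lay below the others on replicate 4. The levels themselves differed little for these 4 genes, whose SDs were 0.09, 0.19, 0.10 and 0.18. What set these arrays apart was not tested.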

How the results depend on the processing

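The identity percentile of 83.1 was 82.6 with normexp correction, 83.9 with the mean of a gene's probes and 68.9 in the deposited value table, which ranks fewer and brighter genes. It was 82.8 to 83.0 with 1 DMSO array left out. For markers of other cell types, 26.3 became 18.1 in that table and 25.9 to 29.1 with 1 array left out. The 10930 detected genes ranged from 10646 without probes that share sequence to 11486 on at least 3 arrays. The 247 genes far off on replicate 2 became 1483 at a distance over 0.5 and 21 over 2.

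The 46 class genes called up after LPS ranged from 41 to 49, and the 1 called down from 0 to 2 with a replicate left out. Fcgr1 lost its call without DMSO replicate 2, without replicate 2 or 3 of every group, and in a fit of the compared groups alone (0 called); Slc40a1 gained one without DMSO replicate 1 (2 called). For cordycepin, 2 to 4 were up. Cxcl2 lost its call with quantile normalisation, normexp correction and the deposited value table. The Cxcl2 call was also lost without the filter on dim probes, with the compared groups alone and in several fits without a replicate. Adm lost its call with normexp correction, the deposited value table, no filter and the compared groups alone, and in several fits without a replicate. Runx1 lost its call without replicate 4 of every group. The 3 called down were 5 with all probes in the percentile or with quantile normalisation, and 2 to 7 with a replicate left out (7 without DMSO replicate 3, 5 without replicate 3). The cause was not tested. With a replicate block, and also with a slide block, 46 and 1 were called after LPS and 3 and 4 after cordycepin. Same-numbered samples deviated together at a mean r of 0.197, against 0.176 for other numbers on the same slide, and only 20 of 24 pairs were over 0.1, so the numbers were not taken as pairs. Samples on different slides had a mean r of -0.187, with 0 of 48 pairs over 0.1. Deviations were taken from the mean of each condition, so a positive r within slides forces a negative mean r between them. The negative value is therefore not a separate result. Deviations were thus shared among samples of the same slide, where slide and culture cannot be told apart, and the main fit had no block for the slide.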
